A study of Mus musculus with 77 samples.

Results

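The retinas of mice with oxygen-induced retinopathy (OIR) were compared with those of control mice on postnatal day 28 (P28). All arrays whose titles name P28 were included, 13 of hyperoxia and 14 of normoxia, which makes 27 of the 77 arrays of the series. Every mouse was of the C57BL/6 strain. Whole litters were randomized on P7 to 75% oxygen (the OIR group) or to 21% oxygen (the control group), and OIR mice breathed room air again from P12 until P28. Each array held the RNA of both retinas of 1 mouse and, in the other dye, a universal mouse reference RNA. The litter of a mouse is not given in the sources used here, so littermates were counted as separate mice and the p-values measure the spread between mice. Values are log2 ratios of retina to reference, with an offset of 50 added to both signals, which makes the fold changes of dim probes smaller than they are. Fold changes are OIR minus control on that scale.

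In this mouse model, high oxygen halts the growth of the retinal vessels and removes part of the central capillaries. After the return to room air, the retina without vessels becomes hypoxic, and abnormal vessels grow toward the vitreous. They reach their largest extent around P17 and then regress, while the retina is vascularized again. Mueller glia, the radial glia of the retina, react to such injury by making intermediate filaments, complement factors and cytokine receptors. P28 thus shows which transcripts still differ after most of the new vessels have regressed. The study still marks some remaining areas of new vessels on that day.

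The P28 arrays did not form a single batch. On 20 of them, 11 OIR and 9 control, the header gave the same scan day, and between 30835 and 34328 probes were well above background. The other 7 arrays, 2 OIR and 5 control, were scanned on 3 other days that held 1 P28 group each, with 16912 to 21000 such probes. Results are therefore given for all 27 mice and, where it matters, in 2 other settings. These are the 20 mice of the shared scan day, and the slide, the glass that carries several arrays, as a block. The slide block takes the difference only from slides that hold both groups, all of them scanned on the shared day. The 2 settings thus rest on nearly the same mice. The labels name Cy5 as the dye of the retina, but the rod genes *Sag*, *Gnat1* and *Pde6b* were far brighter in Cy3, by at least 4.48 on the log2 scale on every P28 array. Cy3 was therefore taken as the retina, so every direction below is opposite to the one the dye labels would give. By *Xist* and Y-linked transcripts, 8 OIR mice were female and 5 male, against 7 and 7 of the controls. For the controls the study lists another split of the sexes, and which mouse differs cannot be told. When the reference channel was tested alone, no probe differed between the groups with limma after adjustment, and 3153 had an unadjusted p under 0.05. With the slide as a block, 2 probes of the reference differed, and 1 on the shared scan day. All of them were higher in OIR and are among the probes with a symbol called for the retina below.

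Few probes still differed on P28, and nearly all of them were higher in OIR. Of 55681 probes, 34 were differentially expressed, or called (0.0611%; limma, Benjamini-Hochberg adjusted p under 0.05), 31 higher (0.0557%) and 3 lower in OIR. They stood for 30 genes with a symbol, 29 overexpressed and 1 lower. The largest rises belonged to the complement component *C4b*, the collagen-processing enhancer *Pcolce*, the endothelin *Edn2* and the transcription factor *Cebpd*, each above 2-fold. The groups did not overlap at all for 3 probes (0.00539% of those tested), those of *C4b*, *Ndufa4l2* and *Antxr2*. With the slide as a block, 0.219% of the probes were called, 0.203% higher and 0.0162% lower, and 24 of the 31 called probes with a symbol were called again. On the shared scan day 66 were called (0.119%), 63 of them higher (0.113%), with 20 of the 31. With the ratio processed by the scanner software, 0.203% were called, 0.196% higher, with 21 of the 31. With the retina channel alone it was 0.302%. All 31 kept their direction with the slide block and on the shared scan day, and 30 with the scanner software's ratio.

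**Figure D1:**
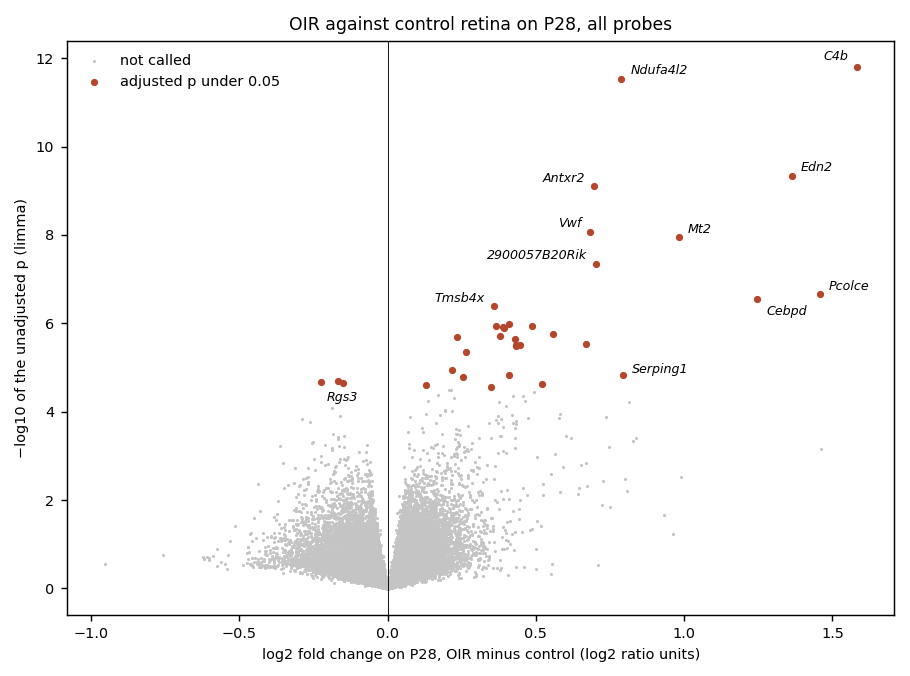
Log2 fold change on P28 (horizontal axis, OIR minus control) against −log10 of the unadjusted limma p (vertical axis). The 28026 probes with a symbol and the called probes without one are drawn, not all 55681 tested. The 34 differentially expressed probes are in red. Of these, 31 lie to the right of 0 and 3 to the left.

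The complement system tags synapses, debris and cells for removal by phagocytes. *C4b*, which encodes a component of its classical pathway, ranged from 0.79 to 2.20 in OIR mice (median 1.44) and from −0.41 to 0.24 in controls (median −0.05). The lowest OIR mouse lay above the highest control. The log2 fold change was 1.58 ± 0.13 (SE; 2.99-fold; limma adjusted p = 8.2e-08), and within the 3 slides that held both groups it was 1.37 to 2.04. The mouse also has the near-identical copy *C4a*, for which no probe could be matched, so the transcripts of both cannot be told apart on this probe. *Serping1*, the inhibitor of the first complement component, ranged from 0.84 to 2.56 in OIR mice (median 1.77) and from 0.54 to 1.34 in controls (median 0.90). The groups overlapped, with 10 of 13 OIR mice above all controls. Its log2 fold change was 0.80 ± 0.15 (limma adjusted p = 0.031), and the call was lost with the slide block (0.78, adjusted p = 0.076) and on the shared scan day (0.76, adjusted p = 0.076), and in 14 of 27 fits that left out 1 mouse. Of 17 complement genes measured, these 2 were called, against 0.137% of all 21154 genes. The C1q chains *C1qa* (0.33), *C1qc* (0.24) and *C1qb* (0.12) had unadjusted p of 0.0033, 0.00031 and 0.018, and their adjusted p were above the threshold. *C3*, the central component, was at −0.01 (adjusted p = 0.996). The median over the 17 genes was 0.10, beside 0.0034 over all genes.

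**Figure D2:**
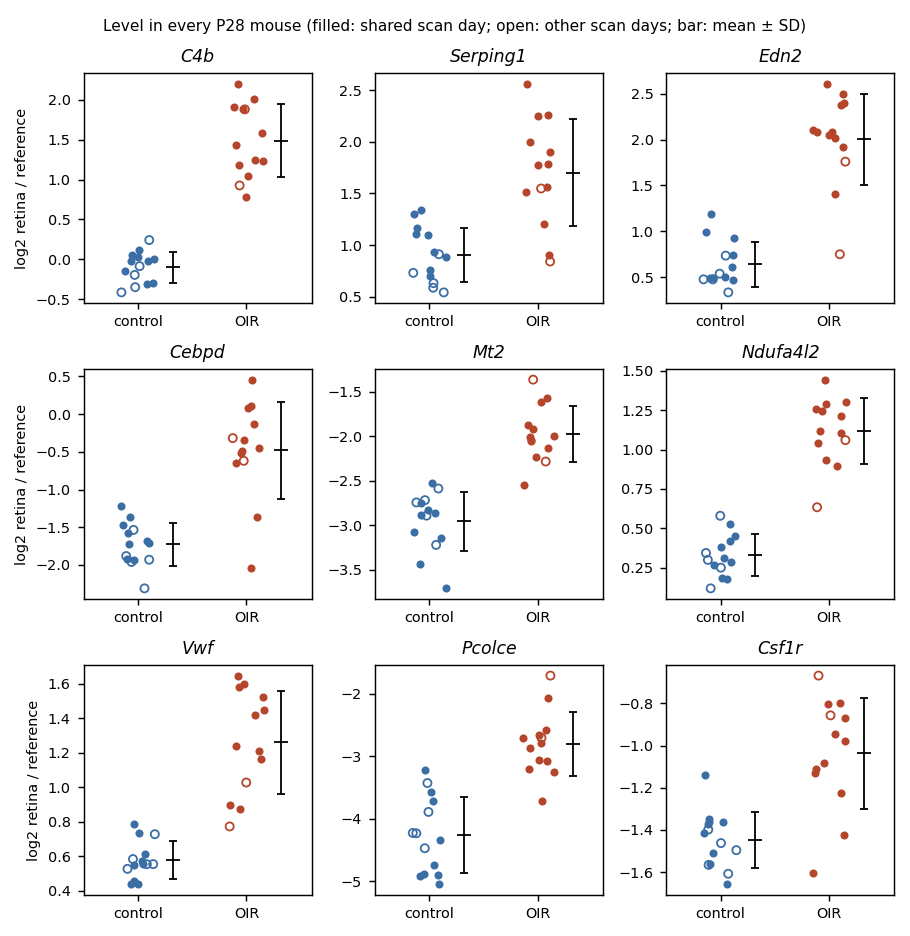
Log2 ratio of retina to reference (vertical axis) of 9 genes in every P28 mouse, controls in blue and OIR in red, with the mean ± SD. Filled points are the shared scan day and open points other scan days; the groups do not overlap for *C4b* and *Ndufa4l2*, while from 1 to 3 OIR mice fall within the range of the controls for *Edn2*, *Cebpd* and *Serping1*.

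Most reactive glia genes lay above 0 on P28. *Edn2* encodes an endothelin peptide that stressed photoreceptors release and that acts on glia and vessels. It ranged from 0.75 to 2.61 in OIR mice (median 2.09) and from 0.33 to 1.18 in controls (median 0.52). Of 13 OIR mice, 12 lay above all controls, and the remaining one was scanned on another day. The log2 fold change was 1.36 ± 0.14 (2.57-fold; limma adjusted p = 8.5e-06), and 1.40 to 1.54 within slides. In the ratio processed by the scanner software, the fold change of *Edn2* was 0.48 with adjusted p = 0.78, and the reference channel of this probe was higher in OIR by 0.23 (unadjusted p = 1.1e-06). The part of the reference in the result was not tested. The receptors *Ednra* (0.10, adjusted p = 0.66) and *Ednrb* (0.07, adjusted p = 0.71) were not called.

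Of 15 genes on the reactive glia list, *Edn2* and *Cebpd* were called, against 0.137% of all genes, and 14 lay above 0. Of the 15, 8 had an unadjusted limma p under 0.05 in the direction of OIR, compared with 4.82% of all genes. *Edn2* was kept on this list although photoreceptors release its peptide, and it is also on the endothelin list. The list was chosen with earlier results of these data known. The median fold change was 0.23 for all mice and 0.34 for the shared scan day. On that day the mean level of the list ranged from −1.54 to −0.99 in OIR mice and from −1.78 to −1.34 in controls. For *Gfap*, the glial filament gene, 2 probes are given. The brighter probe was at 0.37 ± 0.08 and was not called (adjusted p = 0.12). The other probe, A_52_P52303, ranged from 0.04 to 1.49 in OIR mice (median 1.14) and from 0.06 to 0.64 in controls (median 0.30), and was called with the slide block (0.67, adjusted p = 0.045) but not over all mice (0.60, adjusted p = 0.19). Of 13 OIR mice, 9 lay above all controls and 1 below all. *S100a6* (0.67, adjusted p = 0.50), *Cp* (0.49, adjusted p = 0.053) and *Serpina3n* (0.23, adjusted p = 0.24) had the same sign. Among 15 genes of resting Mueller glia and astrocytes none was called. Their median was 0.11 over all mice and 0.16 on the shared scan day, where 14 of the 15 lay above 0 and 5 had an unadjusted p under 0.05 in the direction of OIR. *Pdpn*, a membrane mucin of glia and lymphatic vessels, rose by 0.39 ± 0.06 (adjusted p = 0.0048).

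Cytokines of the interleukin 6 family signal through the shared receptor chain gp130 and the transcription factor STAT3, and *Cebpd*, *Bcl3* and *Osmr* are among the genes such signals induce in glia. *Cebpd* ranged from −2.05 to 0.46 in OIR mice (median −0.45) and from −2.31 to −1.21 in controls (median −1.72). The groups separated except for 2 OIR mice of the shared scan day, 1 of them below the control median. The log2 fold change was 1.25 ± 0.18 (2.37-fold; limma adjusted p = 0.0018), and on the shared scan day it was 1.14 with adjusted p = 0.055. *Bcl3*, a partner of the NF-kappaB subunits p50 and p52, ranged from −2.44 to −0.80 in OIR mice (median −1.56) and from −2.76 to −1.59 in controls (median −2.39). The levels of the controls differed by scan day. The 5 of the other scan days lay between −2.01 and −1.59 and the 9 of the shared day between −2.76 and −2.37. Over all mice *Bcl3* missed the threshold (0.81 ± 0.17, adjusted p = 0.072), while it passed with the slide block (1.01, adjusted p = 0.0026) and on the shared scan day (0.97, adjusted p = 0.0095). The oncostatin M receptor *Osmr* behaved likewise, with 0.57 over all mice (adjusted p = 0.28) and 0.73 with the slide block (adjusted p = 0.00011). *Stat3* (0.39, adjusted p = 0.59) and *Il6st*, which encodes gp130 (0.25, adjusted p = 0.49), were not called. Of 22 genes of this pathway, 1 was called over all mice and 3 with the slide block, against 0.137% and 0.402% of all genes. The ligands *Il6*, *Lif* and *Clcf1* had values of −0.18, −0.03 and −0.16.

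*Bcl6*, a transcriptional repressor, was called in all 3 settings, which share most of their mice. It ranged from 0.07 to 0.77 in OIR mice (median 0.45) and from −0.48 to 0.32 in controls (median 0.06), and 11 of 13 OIR mice lay above all controls. The rise was 0.43 ± 0.07 (limma adjusted p = 0.0078) and 0.42 on the shared scan day (adjusted p = 0.00063). Promoter sequences from RefSeq were at hand for 19 of the 29 overexpressed genes, in 23 windows, and each window was searched on both strands. *Bcl6* was the only one of the 19 with the STAT site TTCNNNGAA, which 8.3% of all 32851 windows hold, and is shown for its 3 matches (capitals) in the 250 bases before one of its 2 listed starts (GRCm38.p6, chr16:23981284-23981533, minus strand).

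*Bcl6*: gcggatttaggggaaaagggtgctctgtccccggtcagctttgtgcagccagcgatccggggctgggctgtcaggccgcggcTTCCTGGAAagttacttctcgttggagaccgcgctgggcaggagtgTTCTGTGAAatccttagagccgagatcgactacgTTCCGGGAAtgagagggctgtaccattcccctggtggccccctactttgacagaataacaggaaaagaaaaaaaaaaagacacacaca

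The matches are a description of these letters and were not tested as binding sites. The C/EBP letters TTGCNNAA or TTNNGCAA were found in 1 of the 23 windows and in 10.8% of all windows. The kappaB letters GGAANNCC or GGNNTTCC were found in 7 and in 18.3%, and the hypoxia response letters ACGTG in 7 and in 19.6%.

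Metallothioneins bind zinc and copper and are induced by metals, glucocorticoids and cytokines. *Mt2* ranged from −2.55 to −1.36 in OIR mice (median −2.01) and from −3.71 to −2.52 in controls (median −2.87). Only the lowest OIR mouse fell within the range of the controls. The log2 fold change was 0.98 ± 0.12 (1.98-fold; limma adjusted p = 0.0001). *Mt1*, its neighbor on the chromosome, ranged from −2.44 to −1.77 in OIR mice (median −1.93) and from −3.06 to −2.03 in controls (median −2.49), with 9 of 13 OIR mice above all controls. Its rise was 0.52 ± 0.10 (adjusted p = 0.040), and the call was lost in 19 of the fits that left out 1 mouse. These were the only 2 called of 8 metallothionein and zinc genes, against 0.137% of all genes. The brain form *Mt3* was at −0.05 and the metal-responsive factor *Mtf1* at 0.04. The promoters of both are shown because the genes rose together. The capitals mark the core letters TGCNCNC of the metal response element on either strand. In the 250 bases shown they occur in 5 places before *Mt2* and in 1 before *Mt1* (GRCm38.p6, chr8:94172368-94172617 and chr8:94178839-94179088, both plus strand). In the whole windows searched, which add the 50 bases after the start, they occur in 6 and 3 places. Each gene had 1 listed start, and the counts depend on where it lies, so they do not rank the promoters.

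*Mt2*: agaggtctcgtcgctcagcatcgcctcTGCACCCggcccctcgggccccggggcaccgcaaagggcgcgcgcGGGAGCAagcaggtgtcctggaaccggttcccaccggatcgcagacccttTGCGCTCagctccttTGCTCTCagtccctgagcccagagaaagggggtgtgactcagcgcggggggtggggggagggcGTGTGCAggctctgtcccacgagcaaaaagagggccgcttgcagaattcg

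*Mt1*: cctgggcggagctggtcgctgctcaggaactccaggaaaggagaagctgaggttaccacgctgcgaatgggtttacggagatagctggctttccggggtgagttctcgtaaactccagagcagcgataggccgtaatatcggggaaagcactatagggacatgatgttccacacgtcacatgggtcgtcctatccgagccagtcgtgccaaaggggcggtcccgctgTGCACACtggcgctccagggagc

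These letters are short, and 51.0% of all windows hold them at least once, as did 13 of the 23 windows of overexpressed genes. The 14 listed glucocorticoid response genes, which can rise together with metallothioneins, included no called gene. Their median was −0.04 over all mice and 0.0073 on the shared scan day. A part of glucocorticoids in the rise of *Mt1* and *Mt2* was not tested.

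The called vessel genes were 1 of mural cells and 1 of endothelium, and *Antxr2*, a matrix receptor, was called beside them. *Ndufa4l2*, a mitochondrial protein that is abundant in pericytes and is induced by hypoxia, ranged from 0.63 to 1.44 in OIR mice (median 1.12) and from 0.12 to 0.58 in controls (median 0.31). The groups did not overlap. The log2 fold change was 0.79 ± 0.07 (1.73-fold; limma adjusted p = 8.2e-08). With the scanner software's ratio it was 0.76 with adjusted p = 0.12, and the reference channel was higher in OIR by 0.24 (unadjusted p = 1.2e-05). The part of the reference was not tested. *Vwf*, the von Willebrand factor of endothelial cells, ranged from 0.77 to 1.65 in OIR mice (median 1.24) and from 0.44 to 0.79 in controls (median 0.55). Only 1 OIR mouse lay below the highest control. It rose by 0.68 ± 0.08 (adjusted p = 9.3e-05), and by 0.93 with adjusted p = 0.090 in the scanner software's ratio. *Antxr2*, which is also known from capillary growth, ranged from −0.73 to −0.10 in OIR mice (median −0.30) and from −1.47 to −0.75 in controls (median −1.07), again without overlap. It rose by 0.70 ± 0.08 (adjusted p = 1.1e-05).

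Of 26 genes of resting endothelium and the blood-retina barrier, 23 lay above 0 and 11 had an unadjusted p under 0.05 in that direction, compared with 4.82% of all genes. The median was 0.13 both for all mice and for the shared scan day. *Vwf* was the 1 gene called over all mice, against 0.137% of all genes. With the slide block 4 were called, against 0.402% of all genes, among them the endothelial receptor *Cd93* (0.64, adjusted p = 0.0021) and the phosphatase *Ptprb* (0.58, adjusted p = 0.018). *Pecam1* was at −0.01 and *Cdh5* at 0.13. In bulk retina, more cells of a type and more RNA per cell cannot be told apart. Of 18 genes of growing vessels, none was called over all mice. *Apln*, the peptide of sprouting tip cells, ranged from −1.12 to −0.27 in OIR mice (median −0.77) and from −1.61 to −0.78 in controls (median −1.25). It was above background in only 9 of 14 controls. Of these 14, 5 were on the arrays of other scan days, which had fewer probes above background. The *Apln* difference was 0.43 ± 0.10 over all mice (limma adjusted p = 0.13), 0.50 with the slide block (adjusted p = 0.0019) and 0.49 on the shared scan day (adjusted p = 0.018). The semaphorin receptor *Plxnd1* rose by 0.48 with the slide block (adjusted p = 0.00037) and stood at 0.45 over all mice (adjusted p = 0.062). *Vegfa* was at 0.16 (adjusted p = 0.46), *Flt1* at 0.18, *Kdr* at −0.06 and the tip cell gene *Esm1* at −0.19. Of 20 listed hypoxia response genes none was called over all mice and 1, *Apln*, with the slide block. *Ndufa4l2*, also induced by hypoxia and called over all mice, was kept on the mural list and is not among these 20. The glucose transporter *Slc2a1* was at 0.39 (adjusted p = 0.15) and *Ldha* at −0.04. *Tnnt2*, a cardiac troponin kept on the mural list, was at 0.43 over all mice (adjusted p = 0.13) and rose by 0.55 with the slide block (adjusted p = 0.0021). The smooth muscle genes *Acta2* and *Tagln* were at −0.06 and −0.07.

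*Pcolce* encodes a protein that speeds the cleavage of fibrillar procollagens. It ranged from −3.71 to −1.71 in OIR mice (median −2.79) and from −5.05 to −3.22 in controls (median −4.29). Of 13 OIR mice, 11 lay above all controls. The log2 fold change was 1.46 ± 0.21 (2.74-fold; limma adjusted p = 0.0015), and 1.46 on the shared scan day (adjusted p = 0.0099). *Fn1*, fibronectin, ranged from −4.70 to −3.74 in OIR mice (median −4.14) and from −5.22 to −4.37 in controls (median −4.97), with 8 of 13 OIR mice above all controls. It rose by 0.67 ± 0.11 (adjusted p = 0.0078). Both were the only 2 called of 28 genes of collagen and its processing, against 0.137% of all genes. The collagens *Col18a1* (0.74, adjusted p = 0.11), *Col1a2* (0.40, adjusted p = 0.69), *Col1a1* (−0.08) and *Col3a1* (−0.03) were not called, and the procollagen protease *Bmp1* was at 0.21. The chaperone *Fkbp10*, which acts on procollagen, was called with the slide block only (0.46, adjusted p = 0.017). Since fibroblasts of the sclera could add such transcripts, 10 of their markers were examined. None was called, their median was 0.10 over all mice and 0.28 on the shared scan day, and *Fbln1* was at 0.99 (adjusted p = 0.46). Their mean level on that day ranged from −3.58 to −2.70 in OIR mice and from −3.84 to −2.99 in controls. The part of such tissue in the result was not tested.

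Microglia are the resident phagocytes of the retina. *Csf1r*, the receptor that keeps them alive, ranged from −1.60 to −0.67 in OIR mice (median −0.98) and from −1.66 to −1.14 in controls (median −1.44). The rise was 0.41 ± 0.08 (limma adjusted p = 0.031), and 0.33 on the shared scan day (adjusted p = 0.24), and the call was lost in 12 of the fits that left out 1 mouse. Of 17 microglia and macrophage genes it was the only one called over all mice, against 0.137% of all genes. With the slide block 3 were called, against 0.402%, which added the lysosomal protease *Ctss* (0.46, adjusted p = 0.025) and the adaptor *Tyrobp* (0.41, adjusted p = 0.019). *Cx3cr1* was at 0.31 (adjusted p = 0.64), *Aif1* at 0.04 and the resting marker *Tmem119* at −0.17. *H2-K1*, a class I histocompatibility gene with close paralogs, ranged from −2.30 to −1.65 in OIR mice (median −1.91) and from −2.64 to −2.18 in controls (median −2.43). It rose by 0.45 ± 0.08 (adjusted p = 0.0078), and 8 of 13 OIR mice lay above all controls. Its light chain *B2m* was called with the slide block (0.63, adjusted p = 0.0495) and not over all mice (0.44, adjusted p = 0.63). Of 14 antigen presentation genes, these were the 2 called with that block. None of 16 interferon response genes was called, with a median of 0.06. *Tnfrsf1a*, a receptor of tumor necrosis factor, rose with the block (0.51, adjusted p = 0.00015) and stood at 0.43 over all mice (adjusted p = 0.25). The apolipoprotein *Apoc1* rose by 0.27 ± 0.05 (adjusted p = 0.010).

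Genes of the cytoskeleton were among the other called ones. The actin-binding genes *Tmsb4x* (0.36, adjusted p = 0.0023) and *Tagln2* (0.56, adjusted p = 0.0061) and the keratin *Krt18* (0.49, adjusted p = 0.0048) rose. *Krt18* is also a marker of surface epithelium. Among 15 genes of the outer eye epithelium and glands it was the only one called, against 0.137% of all genes. *Krt8*, its usual partner, was at −0.34. *Pbxip1* rose with both of its probes (0.41 and 0.43). *Spata6* (0.37), *Dnttip2* (0.38), *Nudt6* (0.24), *Zcchc24* (0.43), *Pter* (0.22), *Rps27l* (0.25), the mitochondrial iron carrier *Slc25a37* (0.35), *2610528A11Rik* (0.39) and *2900057B20Rik* (0.70) were also higher, with adjusted p from 0.00036 to 0.046, and *Pter*, *Rps27l* and *Slc25a37* lost the call in 8, 16 and 20 of the fits that left out 1 mouse. *2900057B20Rik* had the opposite sign in the scanner software's ratio (−0.23, adjusted p = 0.80), and its reference channel was higher in OIR by 0.16 (unadjusted p = 4.6e-06).

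Only 1 gene with a symbol was lower. *Rgs3*, a regulator of G protein signaling, ranged from −0.11 to 0.16 in OIR mice (median 0.07) and from 0.08 to 0.31 in controls (median 0.18). The fall was small, −0.15 ± 0.03 (limma adjusted p = 0.040), and was not called with the slide block (−0.13, adjusted p = 0.18) or in 18 of the fits that left out 1 mouse. The next lower genes, *Nol3* (−0.19, adjusted p = 0.062), *Slc2a6* (−0.19, adjusted p = 0.090), *Gm5797* (−0.16, adjusted p = 0.11) and *Th*, the tyrosine hydroxylase of dopaminergic amacrine cells (−0.29, adjusted p = 0.12), did not pass. For *Th*, 8 of 13 OIR mice lay below all controls.

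Neuronal lists held no called gene over all mice, with the slide block or on the shared scan day. The 16 rod genes had a median of −0.37 over all mice and of 0.06 on the shared scan day. Their mean level ranged from 5.30 to 5.73 in the 5 controls of other scan days, from 3.85 to 4.55 in the 9 controls of the shared day and from 3.64 to 4.59 in the 11 OIR mice of that day. The 2 OIR mice of other scan days were at 4.44 and 5.22, below the controls of other days. The median also turned from below to above 0 for the 10 cone genes (−0.05 and 0.10), the 13 bipolar cell genes (−0.09 and 0.02), the 16 amacrine cell genes (−0.02 and 0.02) and the 12 ganglion cell genes (−0.0027 and 0.05), and it was 0.03 and 0.02 for the 5 horizontal cell genes. In amacrine cell genes the same 2 OIR mice had mean levels of 0.93 and 1.16, with all controls at 1.56 or more. In ganglion cell genes they had 1.14 and 1.24, with all controls at 1.51 or more. They also lay outside all controls in lists that are not neuronal. In red blood cell genes they had 0.35 and 0.36, with all controls at 0.62 or more. In cell division genes they had −1.39 and −1.07, with all controls at −1.57 or less. Neither shared a scan day with a P28 control, so group and scan day cannot be told apart for them. The 19 lens crystallins and related genes were at 0.24 over all mice and 0.60 on the shared scan day, with no called gene and a mean level between 0.0047 and 2.97 in OIR mice of that day and between 0.03 and 3.64 in controls. All 15 cell division genes lay below 0, with a median of −0.24, and none had an unadjusted p under 0.05 over all mice. On the shared scan day 2 of them lay above 0, the median was −0.16, and 4 had an unadjusted p under 0.05 in the lower direction. The 13 genes of pigment epithelium and melanocytes had a median of 0.03 over all mice and −0.05 on the shared scan day, with *Tyrp1* at 0.72 (adjusted p = 0.62). Muscle, red blood cell, circadian, immediate early and programmed cell death lists held no called gene over all mice. On the last of these, *Tnfrsf1a* was called with the slide block and on the shared scan day (0.49, adjusted p = 0.0025). It was 1 of 19 genes, against 0.402% and 0.227% of all genes.

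**Figure D3:**
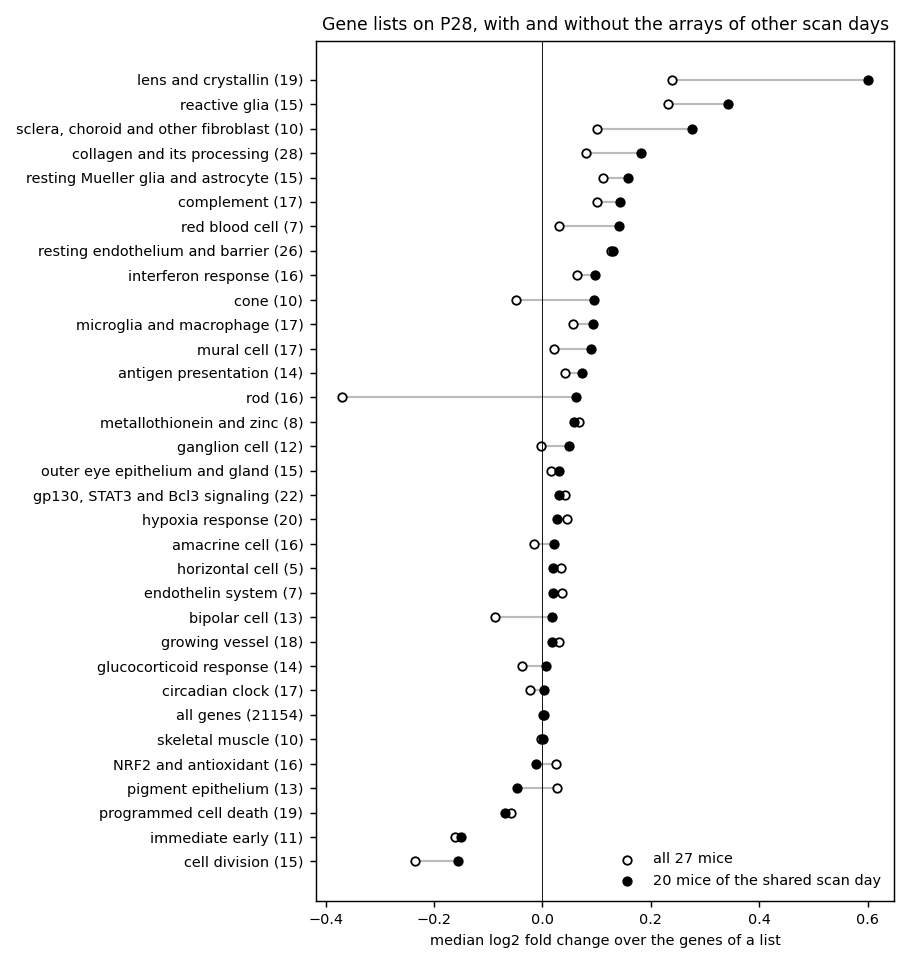
Median log2 fold change on P28 (horizontal axis, OIR minus control) of each gene list, with the number of genes measured, for all 27 mice (open) and the 20 mice of the shared scan day (filled). Rods move from −0.37 to 0.06 between these settings, whereas reactive glia (0.23 and 0.34) and resting endothelium (0.13 and 0.13) stay above 0.

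Several genes that the study names for P28 retina were dim. *Lad1*, an anchoring filament protein, exceeded the background clearly in 11 of 13 OIR but only 4 of 14 control mice, and *Glycam1*, a mucin-like ligand of L-selectin, in 11 and 1. The offset pulls such probes together. The arrays of other scan days, 2 OIR and 5 control, had fewer probes above background, and the counts of mice above were not split by scan day. *Lad1* ranged from 0.05 to 0.45 in OIR mice (median 0.19) and from −0.08 to 0.17 in controls (median 0.02), a difference of 0.17 (limma adjusted p = 0.061). In the scanner software's ratio its difference was 1.97 (adjusted p = 0.0022). *Glycam1* (0.11, adjusted p = 0.47) and *Lyz1* (0.27, adjusted p = 0.69) were called with that ratio too (1.39, adjusted p = 0.019, and 1.40, adjusted p = 0.0099). *Lyz1* has a close paralog. *Crabp1* was at −0.30 (adjusted p = 0.66) and *Fam219aos* at −0.09 (adjusted p = 0.27). The 3 probes of *Grip1* lay between −0.08 and 0.13, and the one called with the scanner software's ratio (−0.97, adjusted p = 0.040) was at −0.08. Of the 12 such genes that could be matched, 3 were called over all mice and 7 with the slide block. The shares over all genes were 0.137% and 0.402%. The study chose them on these samples, so this count is not independent evidence.

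The P28 changes were next set beside those of other mice on P17, 13 OIR and 12 control, and on P12, 13 and 12. On P17, 631 probes were called (1.13%), 447 of them higher in OIR. Of the 31 probes higher on P28, 23 were also higher on P17, which is 74.2% of the P28 probes and 5.15% of those of P17, and 0.803% of all probes were higher on P17. Of the probes higher on P28 with the slide block, 37 were higher on P17, or 32.7%. The median fold change of the 31 probes was 0.67 on P17 and 0.43 on P28. On P12, directly after the hyperoxia, 13 probes were called (0.0233%), all lower, and the 31 probes had a median of −0.0009. Of the P28 genes, *Fn1* was called on P12, in the opposite direction (−0.61, adjusted p = 0.0011).

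The change of the OIR effect between P17 and P28 was tested as a contrast in 1 fit. Most P17 arrays were scanned on other days than most P28 arrays. On the P17 arrays 13801 to 30010 probes were well above background, so a change between days is partly confounded with the arrays. The effect changed for 0.278% of all probes, with a lower effect on P28 for 136 (0.244%) and a higher one for 19 (0.0341%). Of the 34 P28 probes, 11 had a lower effect on P28 and 0 a higher one. With the slide added to that fit, the effect changed for 215 of 55681 probes, lower for 161 and higher for 54. Of the 34 P28 probes, 12 were among them. *Pcolce* went from 2.76 to 1.46, *Cebpd* from 2.65 to 1.25, *Mt2* from 2.24 to 0.98, *Ndufa4l2* from 2.03 to 0.79, *Tagln2* from 1.96 to 0.56 and *Fn1* from 1.76 to 0.67. For *C4b* the effect was 1.79 on P17 and 1.58 on P28, a change of −0.20 ± 0.16 (limma adjusted p = 0.54). No change was called for *Edn2* (1.67 and 1.36), *Antxr2* (0.67 and 0.70), *Serping1* (0.74 and 0.80) and *Vwf* (0.97 and 0.68), with changes between −0.31 and 0.06 and adjusted p of 0.375 or more. Such p do not show that the effects were equal. *Bcl6* was at 0.34 on P17 (adjusted p = 0.39), *Tmsb4x* at 0.50 (adjusted p = 0.44) and *Pdpn* at 0.38 (adjusted p = 0.15), and their changes were not called. *Egfl7*, an endothelial gene, was higher by 1.09 on P17 and stood at −0.05 on P28, and *Vim*, a glial filament gene, went from 1.19 to 0.21. The change was called for both (adjusted p = 1.2e-09 and 5.7e-05).

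**Figure D4:**
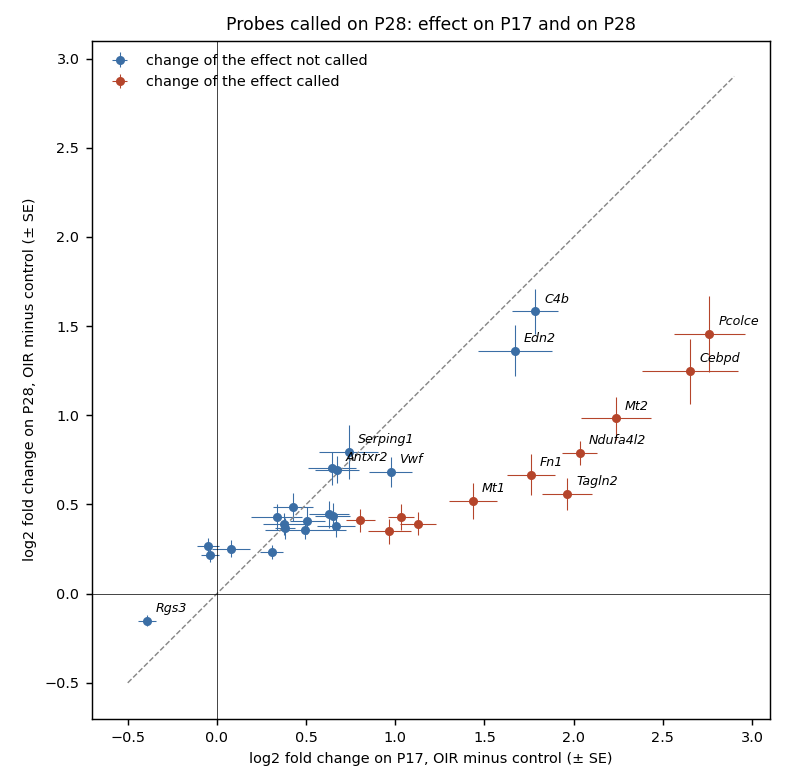
Log2 fold change on P17 (horizontal axis) against that on P28 (vertical axis) with SE for the called P28 probes with a symbol; the dashed line marks equal effects and red marks probes whose effect changed (adjusted p under 0.05). *C4b*, *Edn2* and *Serping1* lie near the line, and *Pcolce*, *Cebpd* and *Mt2* lie below it.

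OIR mice differed among themselves, and some genes varied together. For 8 genes, all 28 pairs were correlated within each group, 56 in all, with permutation p from 100000 resamples. As scan days separate the controls, the 20 mice of the shared scan day are given first. Among the 11 OIR mice of that day, *Bcl3* and *Pcolce* had r = 0.94 and rho = 0.92 (permutation p = 2e-05 and 0.00022, adjusted p = 0.0011 and 0.0062), and r = 0.87 without the 2 mice farthest in *Bcl3*. Over all 13 OIR mice r was 0.88. In controls it was −0.32 on that day (n = 9, permutation adjusted p = 0.65) and 0.17 over all 14. The difference between the groups was not tested. *Cebpd* and *C4b* had r = 0.80 and rho = 0.81 in the 11 OIR mice (permutation p = 0.0013 and 0.0038, adjusted p = 0.015 and 0.045), and r = 0.60 without the 2 mice farthest in *Cebpd*. The 2 OIR mice lowest in *Cebpd* included the lowest in *C4b*. *Bcl3* and *Tnnt2* had r = 0.84 and rho = 0.65 (permutation p = 0.0013 and 0.038, adjusted p = 0.015 and 0.14). In controls this pair had r = 0.87 over all 14 mice and 0.52 on the shared scan day (n = 9, permutation adjusted p = 0.30). With the scanner software's ratio it was −0.10 over all 14. Of the 28 pairs, 6 passed in OIR mice and 0 in controls on that day, and the median r was 0.59 and 0.18. That setting was chosen after seeing the data. Over all mice 4 passed in OIR mice and 2 in controls. With values centered on slide and group it was 9 and 2, and with the scanner software's ratio 6 and 2. Centered on slide, *Cebpd* and *Bcl3* had r = 0.81 in 11 controls (permutation adjusted p = 0.024).

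**Figure D5:**
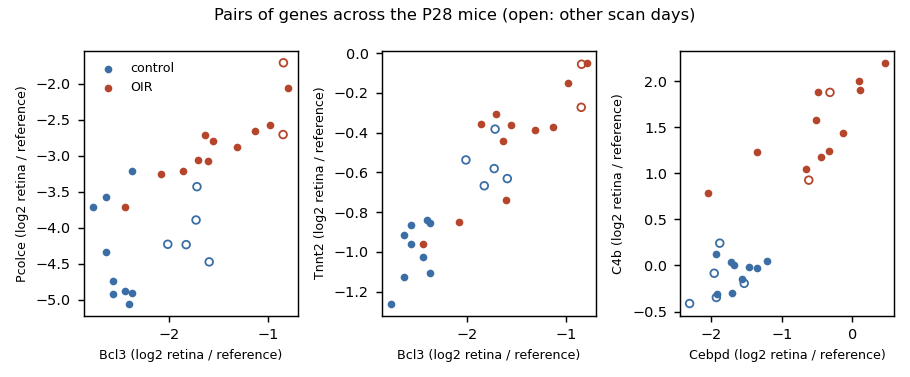
Log2 ratios of retina to reference of *Bcl3* against *Pcolce* and *Tnnt2*, and of *Cebpd* against *C4b*, 1 point per P28 mouse, OIR in red and control in blue, open points from other scan days. In the 11 OIR mice of the shared scan day r is 0.94, 0.84 and 0.80.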

How the data were processed

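Retina RNA of 27 P28 mice was hybridized to Agilent 2-color arrays with 62976 spots. The authors deposited 1 scanner file per array and a table of processed values. Per the file headers, Feature Extraction 10.7.3.1 gave the median signal and local background as intensity, without normalization. Their table gives, as deposited, 1 log2 value per probe, which equals the log2 ratio of processed Cy3 to Cy5 (tolerance 0.001) and is called the scanner software's ratio here. The study used GeneSpring with a moderated test and Benjamini-Hochberg adjustment at 0.05, and the version and the kind of normalization were not given in the sources used here.

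Intensities were corrected by normexp (offset 50) and normalized by loess within arrays, outlier spots were left out, spots of a probe were averaged, and 55681 probes without a filter were tested with limma 3.58.1 in R 4.3.3 (Benjamini-Hochberg). The procedure was tested on simulated data. Symbols came from RefSeq accessions (GRCm38.p6; 28026 probes, 21154 genes), while the array design uses mm9, so no gene coordinates are given. The number of mice limits the precision. Genes named are the called ones, those the study names, the 20 largest called only with the slide block, the 5 lowest p among falls, and called or bright list members; *Egfl7* and others without a call come from these lists. A gene on a list is represented by its brightest probe. Members and lists were chosen with earlier results of these data known. The gene *Fgf2os* was not matched to a probe.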

Additional observations from a re-analysis of the deposited data

Results flagged for a closer look

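The following genes, called on P28 over all mice or with the slide block, had an OIR effect that differed between P17 and P28 by a test of the difference (a contrast in 1 limma fit of separate mice, adjusted over all probes). On the log2 scale, the effect on P28 minus that on P17 was −1.406 for *Tagln2*, −1.407 for *Cebpd*, −1.305 for *Pcolce*, −1.256 for *Mt2* and −1.245 for *Ndufa4l2*. It was −1.167 for *Cd93*, −1.095 for *Fn1*, −0.9895 for *Apln*, −0.9685 for *Plxnd1* and −0.9147 for *Mt1*. Smaller changes were found for *2610528A11Rik* (−0.735), *Slc25a37* (−0.6158) and both probes of *Pbxip1* (−0.6026 and −0.3939). In all 14 cases the effect was above 0 on both days and lower on P28. Most P17 arrays were scanned on other days than most P28 arrays, so these changes are partly confounded with the arrays.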

How the results depend on the processing

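No paired analysis was possible because the OIR and control mice share no replicate numbers. The share of probes called on P28, 0.0611% (34 probes), became 0.203% with the scanner software's ratio, 0.219% with the slide as a block, 0.097% with it as a random block, 0.136% on the slides that hold both groups, 0.136% with the scanner software's ratio and the slide block, 0.11% without background subtraction, 0.149% in 1 fit over 6 groups, 0.203% with array weights, 0.302% with the retina channel alone and 0.018% after Bonferroni adjustment. It was 0.119% on the shared scan day and 0.176% there with the scanner software's ratio, both chosen after seeing the data. Leaving out 1 mouse at a time gave 0.0431 to 0.162%, or 24 to 90 probes, with 90 without OIR mouse 18, the only P28 array of its scan day. Of the 31 called probes with a symbol, 24 to 31 were called then. *Mt1*, *Csf1r*, *Pter*, *Rgs3*, *Rps27l*, *Serping1* and *Slc25a37* lost their call in 8 to 20 of these 27 fits. Of the same 31 probes, 19 were called on the slides that hold both groups, 20 on the shared scan day, 16 with the scanner software's ratio there, 16 with that ratio and the slide block, and 10 after Bonferroni adjustment.

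With the scanner software's ratio the counts were 1471 on P17, 39 on P12 and 325 for the change from P17 to P28. The reference channel gave 2 probes with the slide block and 1 on the shared scan day, all of them among the called P28 probes with a symbol. Of the 56 correlations, 6 were called over all mice and 11 with values centered on slide and group. Among the called genes, only *2900057B20Rik* changed its sign under an alternative, to −0.23 with the scanner software's ratio, −0.55 on the shared scan day and −0.60 with the slide block, all with that ratio. The cause was not tested. On the shared scan day, list medians also changed sign for rods, cones, bipolar, amacrine and ganglion cells, pigment epithelium, glucocorticoid, NRF2, circadian and muscle genes. Dim probes such as *Lad1* and *Glycam1*, at background in most controls, are limited by signal.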
